A study of Mus musculus with 15 samples.

Results

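The 67 ephrin, semaphorin, netrin and Slit guidance genes were examined in cultured mouse kidney tubule cells with and without Diet1. They comprise 8 ephrins, 14 Eph receptors, 20 semaphorins, 9 plexins, 2 neuropilins, 4 netrins, 4 Unc5 receptors, 3 Slits and 3 Robo receptors, and were taken by gene symbol from a table of 24421 genes. Transcripts were counted in 15 RNA-seq libraries of primary proximal tubule cells of C57BL/6 mice, grown through a single passage. The groups were male Diet1 KO (3 libraries), male WT (4), female Diet1 KO (4) and female WT (4). The cells of a group came from 3 to 4 mice, were combined into a single pool and were then divided into technical replicates, so each group is 1 pool. The age of the mice and the construction of the Diet1 allele are not given in the sources used here. Diet1, now called Malrd1, was not analysed here, so the KO label could not be checked against its target.

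Guidance genes encode cues and receptors that steer growing axons, migrating cells and sprouting vessels, and many of them also act at contacts between epithelial cells. Ephrins sit in the membrane, those of class A through a lipid anchor and those of class B with a transmembrane segment, and bind Eph receptor tyrosine kinases on the neighbouring cell. Semaphorins bind plexins, and most secreted semaphorins of class 3 need a neuropilin as co-receptor. Netrins bind Dcc, neogenin and the Unc5 receptors, and Slits bind Robo receptors. In the developing kidney, Slit2 and Robo2 limit where the ureteric bud grows out.

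Library totals ran from 17648416 to 30896637 counts. Values are given in CPM, counts per 1000000 of a library's total with TMM correction for composition, with SDs over the libraries of a group, and as log2 fold changes with standard errors. Libraries of the same group differed by more than sampling noise (chi-square per degree of freedom 1.53 to 7.75 between pairs). A gene was called when its adjusted p from edgeR's quasi-likelihood test was below 0.05, with the adjustment over all 13912 genes tested. The p-values measure the spread between libraries of a pool and not the spread between mice or cultures. The cells carried epithelial markers such as Cdh1, at 1015 ± 11.6 CPM in male KO, 878 ± 11.5 CPM in male WT, 909 ± 16.5 CPM in female KO and 878 ± 17.7 CPM in female WT. The keratin Krt8 was at 2357 ± 24.8, 1787 ± 63.8, 2093 ± 40.4 and 1544 ± 22.1 CPM in the same order. Fibroblast markers were present too, from the barely detected Lum to Col1a1 at 964 ± 60.3, 1771 ± 66.1, 1414 ± 61.4 and 1947 ± 85.2 CPM. Mature proximal tubule markers were uneven. Of 16, 9 had enough counts for testing. The brush border enzyme Ggt1 was the highest, at 37.1 ± 1.12, 47.7 ± 2.38, 35.5 ± 1.42 and 68.7 ± 7.07 CPM in the same order. The endocytic receptor Lrp2 averaged 15.4 ± 1.14, 20.96 ± 1.54, 12.1 ± 0.857 and 19.5 ± 1.43 CPM, and the phosphate transporter Slc34a1 was at or near 0 in all groups. Ribosomal protein genes held 2.37 ± 0.0437% of counts in male KO against 2.13 ± 0.100% in male WT, and 2.39 ± 0.104% in female KO against 2.19 ± 0.0421% in female WT. This share is an expression value and does not measure RNA integrity, which was not assessed here.

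Of the 67 guidance genes, 59 had enough counts to be tested. Their median level was 26.0 CPM, beside 25.4 CPM for all genes tested. The other 8, Epha5, Epha6, Epha8, Epha10, Ntn5, Plxnb3, Sema5b and Unc5d, never exceeded 7 counts in a library and are not described further. Counts per kilobase of exon (RPKM) allow genes to be ranked within a pool. The semaphorin receptor Plxnb2 was the highest plexin at 105 ± 1.46 RPKM in male KO, 96.4 ± 1.08 in male WT, 99.5 ± 2.09 in female KO and 94.6 ± 0.344 in female WT, and Plxna1 followed it. Most other families likewise had a single leading gene in every pool. The Eph receptor Epha2, which binds class A ephrins and is common in epithelia, held 53.3 ± 0.544% of the summed Eph RPKM in male KO and 49.3 ± 0.549% in male WT, and 54.8 ± 0.625% in female KO and 44.03 ± 1.12% in female WT. Nrp1, a co-receptor shared by semaphorins and VEGF, held 88.9 ± 0.256%, 89.8 ± 0.421%, 90.2 ± 0.357% and 92.3 ± 0.2103% of neuropilin RPKM in male KO, male WT, female KO and female WT. Unc5b, a netrin receptor best known from vessels, held 96.2 ± 0.313% of Unc5 RPKM in female KO and 96.9 ± 0.309% in female WT. The leading ligands were Efnb1 at 54.7 ± 1.404 RPKM in male KO and 48.96 ± 0.747 in male WT, Sema4d at 22.4 ± 0.545 and 21.1 ± 0.408, and the basement membrane netrin Ntn4 at 15.1 ± 0.483 and 17.1 ± 0.673. Sema4d led the semaphorins in 3 pools and Sema6a in male KO. Slit and Robo transcripts were scarcer, with Slit2 at 0.532 ± 0.0394 RPKM in male KO and 0.709 ± 0.0161 in male WT, and Robo1 at 3.02 ± 0.0835 and 3.63 ± 0.07599. In male WT Slit3 was above Slit2 per kilobase, at 0.848 ± 0.0433 RPKM, but below it in CPM (5.14 against 18.04). This order rests on the exon lengths used, 6067 bases for Slit3 and 25433 for Slit2, which join the exons of all annotated isoforms.

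**Figure D1:**
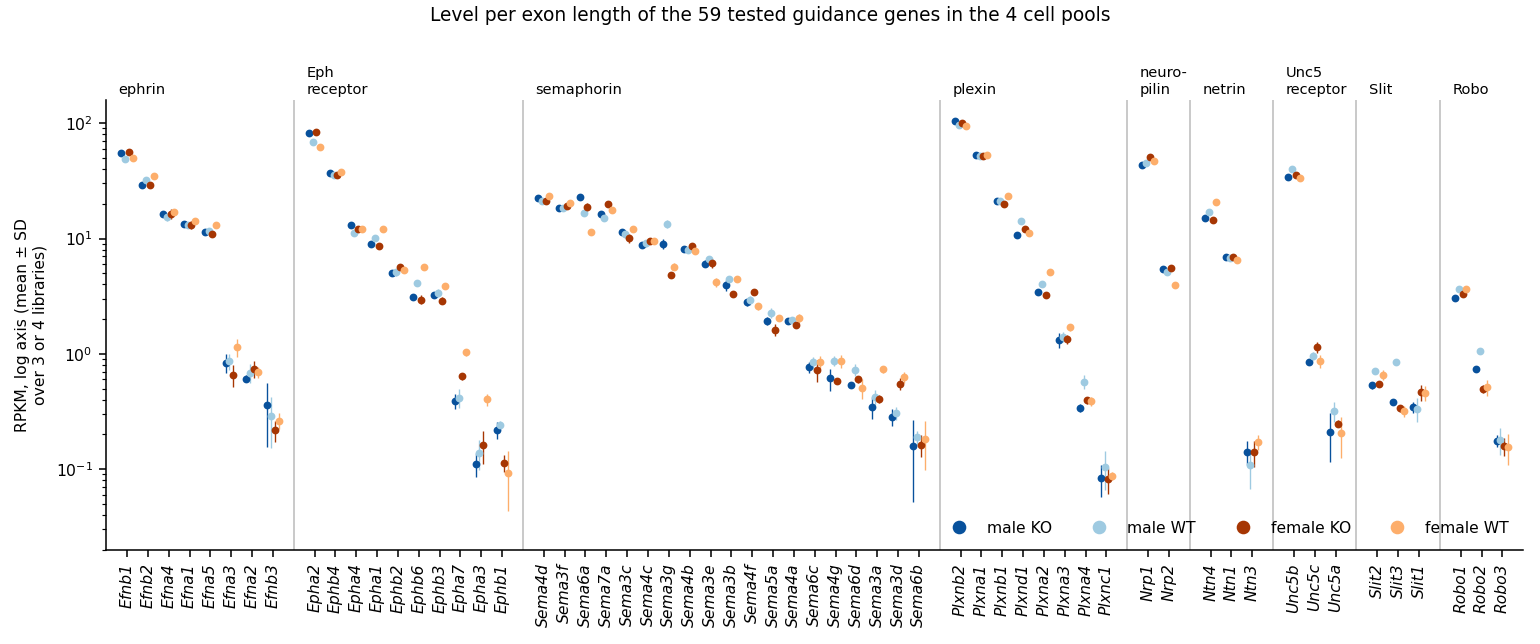
RPKM (log axis, mean ± SD over 3 or 4 libraries) of the 59 tested guidance genes, ordered within each family by level, in male KO, male WT, female KO and female WT pools. Plxnb2, Epha2, Efnb1 and Nrp1 stand near the top, and the class 3 semaphorin Sema3g and the receptor Epha7 show wide gaps between male and female pools.

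The first comparison asked how KO cells differed from WT cells of the same sex. In male cells 6 guidance genes were higher in KO and 15 lower, which is 35.6% of those tested, against 20.2% of all genes (10.1% higher and 10.1% lower). In female cells 13 were higher and 23 lower, 61.0% of those tested, against 39.3% of all genes (20.7% higher and 18.6% lower). Most changes were small: 2 called genes in male cells (3.21% of all genes) and 7 in female cells (6.73% of all genes) differed by at least 1.5-fold. KO and WT libraries did not overlap for 22 guidance genes in male cells (37.3%, against 27.7% of all genes) and for 37 in female cells (62.7%, against 36.1%). The median log2 fold change of the 59 guidance genes was -0.07 in male and -0.10 in female cells, where the median of all genes was 0.00 in each. Both sexes shared 9 genes lower in KO (15.3% of those tested, against 5.01% of all genes) and 4 higher (6.78% against 7.38%). Plxnd1, Sema4d and Unc5b, 3 genes, were called in opposite directions (5.08%, against 1.55% of all genes). Alternative analyses lost the female Plxnd1 call in 9 of 24 cases, the male Sema4d call in 13 and the female Unc5b call in 2. Another 5 were called in male cells alone (8.47%, against 6.25% of all genes), 20 in female cells alone (33.9% against 25.4%) and 18 in neither (30.5% against 54.4%). With 1 pool per group, genotype and pool cannot be told apart, and in bulk RNA neither can fewer cells of a type and less RNA per cell.

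**Figure D2:**
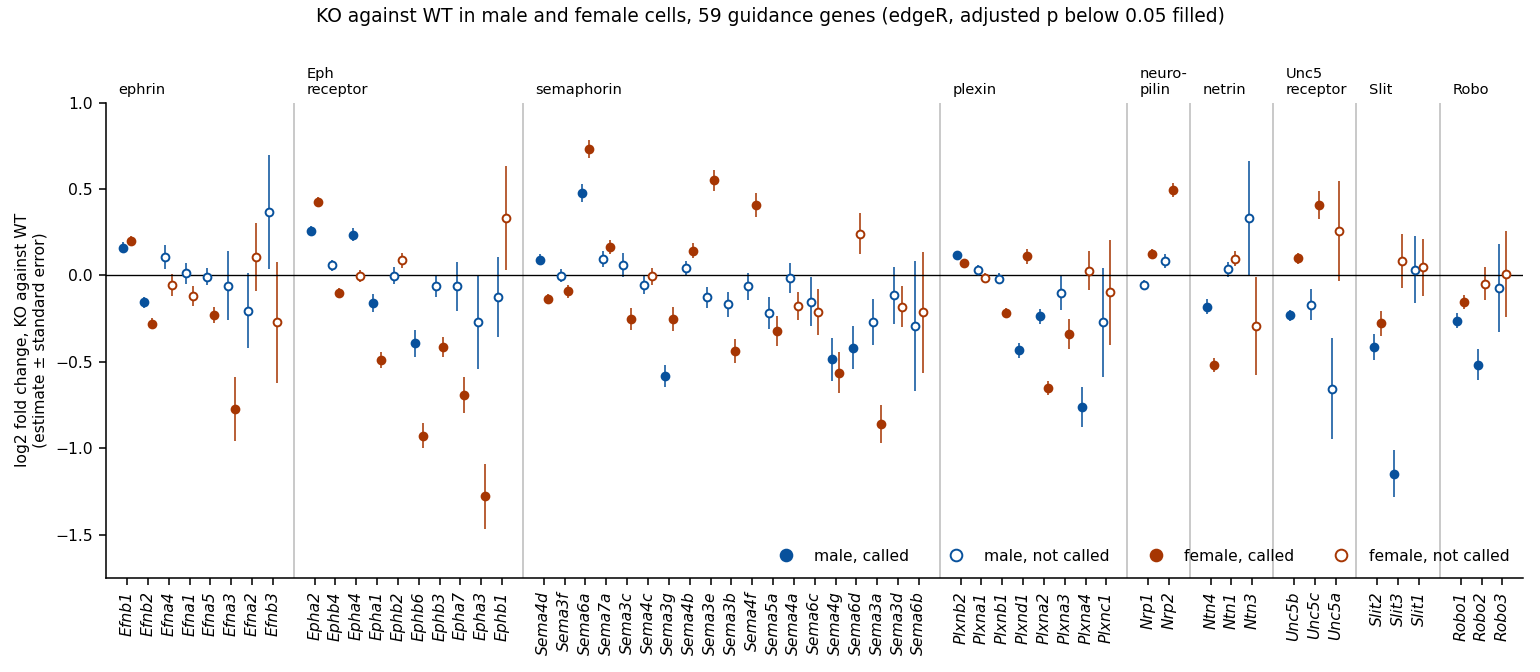
Log2 fold change of KO against WT (estimate ± standard error) for the 59 tested guidance genes in male and female cells, with called genes as filled points. The lowest male estimate is that of Slit3 and the lowest female estimate that of Epha3, while Sema6a is the highest called estimate in each sex.

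Among Eph receptors, the abundant Epha2 was higher and the kinase-inactive Ephb6 lower in KO of both sexes. Epha2 (GRCm38 chromosome 4, 141301240 to 141329384) had 380.3, 386 and 378 CPM in male KO libraries, against 322, 311, 319.9 and 326 CPM in male WT (log2 fold change 0.25 ± 0.029, edgeR adjusted p = 2.85e-08). In female KO it had 386, 396, 384 and 388 CPM, against 276, 284, 294 and 302 CPM in female WT (log2 fold change 0.43 ± 0.027, edgeR adjusted p = 8.18e-15). All KO libraries lay above all WT libraries, and the KO pools of both sexes were closer to each other than the WT pools were. Ephb6 (chromosome 6, 41605482 to 41620509), which lacks kinase activity, had 11.2, 12.6 and 11.7 CPM in male KO against 15.5, 15.5, 15.9 and 15.1 CPM in male WT (log2 fold change -0.39 ± 0.078, edgeR adjusted p = 2.76e-04). Its female KO values were 10.6, 11.2, 10.3 and 12.5 CPM, against 21.9, 22.03, 21.97 and 19.3 CPM in female WT (log2 fold change -0.93 ± 0.070, edgeR adjusted p = 7.15e-13). KO and WT libraries of Ephb6 did not overlap in either sex, and female WT was the highest pool. Epha1 was lower in both sexes too, by 0.16 ± 0.050 and 0.49 ± 0.045 on the log2 scale in male and female KO, but its male libraries overlapped and its exons share 236 bases with Zyx on the other strand. The male call was lost when male KO replicate 2 or 3, or male WT replicate 1 or 2, was left out (edgeR adjusted p = 0.0513 to 0.145).

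Other Eph receptors changed in a single sex. Epha3 and Epha7, receptors of class A ephrins known from neural patterning, were rare and fell in female KO. Epha3 had 0.9703, 1.25, 1.43 and 2.03 CPM in female KO against 3.75, 3.03, 3.27 and 3.93 CPM in female WT (log2 fold change -1.28 ± 0.19, edgeR adjusted p = 1.41e-06). Epha7 had 6.05, 5.74, 6.65 and 6.71 CPM in female KO against 9.94, 9.31, 10.8 and 10.6 CPM in female WT (log2 fold change -0.69 ± 0.10, edgeR adjusted p = 1.69e-06). In both genes the female WT libraries lay above every library of the other 3 pools, and male KO and WT libraries overlapped (-0.27 ± 0.27 and -0.06 ± 0.14 on the log2 scale, edgeR adjusted p = 0.553 and 0.808). Ephb3 (log2 fold change -0.41 ± 0.059) and Ephb4, the receptor of ephrin-B2 on veins (-0.10 ± 0.029), were also lower in female KO. Epha4, which binds ephrins of both classes, was higher in male KO alone, at 106, 105 and 106 CPM against 88.1, 92.3, 87.5 and 91.99 CPM in male WT (log2 fold change 0.24 ± 0.037, edgeR adjusted p = 8.74e-06). Neither Ephb2 nor the rare Ephb1 was called in either sex.

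The class B ephrins Efnb1 and Efnb2 moved in opposite directions. Efnb1 (chromosome X, 99136130 to 99148991) had 188, 194 and 184 CPM in male KO against 166, 168, 171 and 171 CPM in male WT (log2 fold change 0.16 ± 0.031, edgeR adjusted p = 2.39e-04), and 195, 208, 191 and 190.4 CPM in female KO against 171, 171, 172 and 170.2 CPM in female WT (log2 fold change 0.20 ± 0.029, edgeR adjusted p = 1.44e-06). Efnb2, the arterial partner of Ephb4, had 202, 192 and 202 CPM in male KO against 210.5, 226, 226 and 222 CPM in male WT (log2 fold change -0.16 ± 0.032, edgeR adjusted p = 4.49e-04). It had 195, 204, 199 and 194 CPM in female KO against 251, 238, 234 and 239 CPM in female WT (log2 fold change -0.28 ± 0.030, edgeR adjusted p = 2.08e-09). For both ligands KO and WT libraries were separate in each sex, with Efnb1 above and Efnb2 below. Of the class A ephrins, Efna5 (log2 fold change -0.23 ± 0.045) and the rare Efna3 (-0.78 ± 0.19) were lower in female KO. Efna3 had 1.14, 1.997, 1.57 and 1.71 CPM in female KO against 2.48, 3.25, 2.25 and 3.09 CPM in female WT. Efna1, Efna2 and Efna4 were called in neither sex, and neither was Efnb3.

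Promoter windows are shown for an ephrin, a pair of Eph receptors and a semaphorin that changed in the same direction in both sexes, so that the sequence near their start can be read beside the change. Each runs 5′ to 3′ on the plus strand from 250 bases before to 50 bases after the RefSeq start on GRCm38.p6, with GC boxes in capitals. Epha2 (chr4:141300971-141301270) and Efnb1 (chrX:99135811-99136110) were higher in KO, and Ephb6 (chr6:41605261-41605560) and Sema4g (chr19:44989094-44989393) lower. The GENCODE gene model of Efnb1 starts after its window ends, and that of Epha2 starts within its window but after the RefSeq start. Those of Ephb6 and Sema4g start within their windows before the RefSeq start, at 41605482 and 44989101. Nearly all of the Sema4g window, with its GC boxes, thus lies inside the gene model.
Epha2: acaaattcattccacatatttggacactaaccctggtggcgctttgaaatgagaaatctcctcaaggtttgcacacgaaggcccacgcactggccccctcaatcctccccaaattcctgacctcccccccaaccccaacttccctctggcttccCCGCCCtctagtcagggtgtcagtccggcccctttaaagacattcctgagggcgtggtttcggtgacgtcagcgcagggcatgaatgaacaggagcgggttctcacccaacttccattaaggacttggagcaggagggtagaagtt
Efnb1: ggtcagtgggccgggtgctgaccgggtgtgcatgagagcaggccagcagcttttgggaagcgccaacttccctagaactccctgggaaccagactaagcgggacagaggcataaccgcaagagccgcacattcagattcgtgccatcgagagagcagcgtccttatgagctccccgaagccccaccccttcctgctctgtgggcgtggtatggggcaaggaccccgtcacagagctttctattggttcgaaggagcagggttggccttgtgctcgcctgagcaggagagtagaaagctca
Ephb6: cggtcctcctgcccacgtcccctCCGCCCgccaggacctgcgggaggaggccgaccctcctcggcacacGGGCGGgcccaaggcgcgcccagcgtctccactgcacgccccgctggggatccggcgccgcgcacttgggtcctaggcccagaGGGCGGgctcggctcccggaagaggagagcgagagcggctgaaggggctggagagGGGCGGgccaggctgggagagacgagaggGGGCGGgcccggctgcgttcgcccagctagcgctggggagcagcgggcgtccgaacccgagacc
Sema4g: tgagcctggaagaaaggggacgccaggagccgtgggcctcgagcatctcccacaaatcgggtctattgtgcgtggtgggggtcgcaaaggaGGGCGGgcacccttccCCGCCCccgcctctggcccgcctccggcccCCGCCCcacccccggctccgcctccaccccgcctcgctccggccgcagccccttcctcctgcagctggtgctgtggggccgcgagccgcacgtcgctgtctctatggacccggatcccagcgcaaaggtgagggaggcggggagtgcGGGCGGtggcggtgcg
A GC box was taken as GGGCGG or its reverse complement CCGCCC. It occurred 1 time in the Epha2 window, 0 times in Efnb1, 5 times in Ephb6 and 4 times in Sema4g, and in 35.7% of all 32851 RefSeq windows. CpG dinucleotides numbered 10 in Epha2, 14 in Efnb1, 34 in Ephb6 and 30 in Sema4g, against a median of 7. The sequence CCAAT or its reverse complement, found in 37.4% of all windows, was present in Efnb1 alone of the 4. Of the guidance genes called in the same direction in both sexes, those lower in KO had a GC box in 8 of 9 windows and those higher in 3 of 4 (3 genes with a window). CpG counts of these classes overlapped, at 8 to 35 per window for genes lower in KO and 10 to 27 for genes higher. The 4 windows shown are examples and do not stand for their classes. Windows of all tested genes, or of the other guidance genes, were not counted separately. A link between GC boxes and the KO change was not tested. RefSeq windows were at hand for 58 of the 67 guidance genes.

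Semaphorin changes were led by Sema6a, a transmembrane ligand of class A plexins, which had the largest increase among called guidance genes in each sex. Sema6a (chromosome 18, 47235598 to 47368870) had 199, 197 and 211 CPM in male KO against 136, 144, 152 and 152 CPM in male WT (log2 fold change 0.47 ± 0.053, edgeR adjusted p = 1.74e-06). It had 147, 173, 171 and 174 CPM in female KO against 98.7, 101, 96.1 and 105 CPM in female WT, a 1.66-fold difference (log2 fold change 0.73 ± 0.051, edgeR adjusted p = 9.09e-10). The groups did not overlap in either sex, and female KO replicate 1 lay apart from the other 3 at the low end. Sema4g fell to 6.62, 4.63 and 4.63 CPM in male KO, against 6.64, 7.33, 7.51 and 8.44 CPM in male WT (log2 fold change -0.49 ± 0.13, edgeR adjusted p = 0.00444), and to 5.08, 5.09, 5.22 and 4.91 CPM in female KO, against 8.16, 8.03, 5.96 and 7.85 CPM in female WT (log2 fold change -0.56 ± 0.12, edgeR adjusted p = 2.07e-04). Its highest KO library lay just below its lowest WT library in male cells, and the male call was lost without male KO replicate 3 (adjusted p = 0.0552). Sema3g, a secreted semaphorin that binds Nrp2 and is associated with endothelium, had 44.5, 41.1 and 36.4 CPM in male KO against 61.9, 61.4, 65.7 and 54.1 CPM in male WT (log2 fold change -0.58 ± 0.063, edgeR adjusted p = 5.97e-08). Female pools had less of it, at 21.98, 22.9, 21.2 and 20.8 CPM in KO and 25.7, 24.5, 28.3 and 24.9 CPM in WT (log2 fold change -0.25 ± 0.070, edgeR adjusted p = 0.00490).

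Of the 7 class 3 semaphorins, 6 were called in female cells (39.3% of all genes were) and 1 in male cells (20.2% of all genes). Sema3a, a repellent that signals through Nrp1, had 5.94, 5.14, 6.14 and 5.36 CPM in female KO against 10.1, 9.896, 9.52 and 11.3 CPM in female WT (log2 fold change -0.86 ± 0.11, edgeR adjusted p = 8.28e-08). Sema3e, the ligand of Plxnd1, went the other way, with 54.7, 62.8, 58.8 and 50.9 CPM in female KO against 34.8, 37.6, 40.8 and 41.5 CPM in female WT (log2 fold change 0.55 ± 0.060, edgeR adjusted p = 6.97e-08). For each of these genes female WT was the pool that stood apart, above the other 3 for Sema3a and below them for Sema3e. Sema3b (-0.44 ± 0.068), Sema3c (-0.25 ± 0.064) and Sema3f (-0.09 ± 0.036), which also act through neuropilins, were lower in female KO on the log2 scale, and Sema3d was called in neither sex. The call of Sema3f was lost without female KO replicate 2 or 3 or female WT replicate 3 or 4 (edgeR adjusted p = 0.0759 to 0.116). Among membrane semaphorins, Sema4b (0.14 ± 0.042), Sema4f (0.41 ± 0.071) and the lipid-anchored Sema7a (0.17 ± 0.040) were higher and Sema5a (-0.32 ± 0.088) lower in female KO. Sema6d, a ligand of Plxna1, was lower in male KO alone, at 5.88, 5.77 and 5.46 CPM against 6.96, 7.11, 7.59 and 9.02 CPM in male WT (log2 fold change -0.42 ± 0.12, edgeR adjusted p = 0.0122). Without male KO replicate 3 or male WT replicate 4 its adjusted p was 0.0623 or 0.0602. The Plxnb1 ligand Sema4d was lower in female KO (log2 fold change -0.14 ± 0.030, edgeR adjusted p = 4.77e-04), while its male increase (log2 fold change 0.09 ± 0.033, edgeR adjusted p = 0.0476) was lost in 13 of 24 alternative analyses (adjusted p = 0.0511 to 0.162), among them those without male KO replicate 1 or 3, male WT replicate 1, 2 or 4, or female WT replicate 2 or 4. Sema4a, Sema4c, Sema6b and Sema6c were called in neither sex.

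Of the plexins, the Sema6a receptor Plxna2 was lower in KO of both sexes and Plxna4, another Sema6a receptor, in male KO. Plxna2 (chromosome 1, 194618218 to 194816869) had 61.3, 55.9 and 60.2 CPM in male KO against 67.2, 70.5, 71.4 and 70.4 CPM in male WT (log2 fold change -0.24 ± 0.044, edgeR adjusted p = 9.52e-05). It had 52.9, 52.5, 59.2 and 57.4 CPM in female KO against 86.9, 90.1, 85.99 and 86.6 CPM in female WT (log2 fold change -0.65 ± 0.040, edgeR adjusted p = 3.66e-15). Plxna4 had 5.24, 4.52 and 4.63 CPM in male KO against 8.35, 6.44, 9.09 and 8.38 CPM in male WT (log2 fold change -0.76 ± 0.12, edgeR adjusted p = 5.65e-06). The male WT libraries of Plxna4 lay above all others, and female KO and WT overlapped at 5.08 to 5.89 and 5.11 to 6.202 CPM. Plxnd1, the endothelial receptor of Sema3e, had 80.5, 79.6 and 72.7 CPM in male KO against 113, 99.1, 99.7 and 107 CPM in male WT (log2 fold change -0.43 ± 0.044, edgeR adjusted p = 2.11e-09). In female cells it had 91.95, 87.04, 85.1 and 86.5 CPM in KO against 79.2, 79.6, 81.7 and 84.01 CPM in WT (log2 fold change 0.11 ± 0.041, edgeR adjusted p = 0.0320), a small increase whose call was lost in 9 of 24 alternative analyses (adjusted p = 0.0532 to 0.172), among them those without female KO replicate 1 or 2 or female WT replicate 1, 2 or 3. Plxnb2, the most abundant plexin, was higher in KO of both sexes by 0.12 ± 0.025 and 0.07 ± 0.023 on the log2 scale. The female call was lost without female KO replicate 4 (adjusted p = 0.0525) and with library size as the only scaling (adjusted p = 0.233). Plxnb1 (-0.22 ± 0.031) and Plxna3 (-0.34 ± 0.089) were lower in female KO, and neither the abundant Plxna1 nor the rare Plxnc1 was called in either sex.

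Both neuropilins were higher in female KO and neither was called in male cells. Nrp2, which binds Sema3f and Sema3g, had 64.9, 64.4, 67.6 and 66.9 CPM in female KO against 47.5, 44.8, 47.3 and 47.6 CPM in female WT (log2 fold change 0.49 ± 0.040, edgeR adjusted p = 2.81e-12). Nrp1 had 483, 516, 494 and 517 CPM in female KO against 449, 453, 467 and 474 CPM in female WT (log2 fold change 0.12 ± 0.027, edgeR adjusted p = 3.85e-04). Female WT was the lowest of the 4 pools for Nrp2, and female KO the highest for Nrp1.

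Among netrins and their receptors, Ntn4 fell in both sexes and Unc5b in male KO. Ntn4, a laminin-binding netrin of basement membranes (chromosome 10, 93640681 to 93747207), had 54.6, 58.2 and 56.4 CPM in male KO against 63.7, 67.6, 61.7 and 63.1 CPM in male WT (log2 fold change -0.18 ± 0.043, edgeR adjusted p = 0.00196). It had 54.3, 53.03, 52.6 and 54.9 CPM in female KO against 77.7, 80.8, 77.2 and 72.4 CPM in female WT (log2 fold change -0.52 ± 0.039, edgeR adjusted p = 7.58e-13). No KO library reached a WT library of its sex. Unc5b had 216, 219 and 212 CPM in male KO against 255, 243, 247 and 267 CPM in male WT (log2 fold change -0.23 ± 0.033, edgeR adjusted p = 1.72e-06), and 229, 229.9, 223 and 215 CPM in female KO against 215, 203, 207 and 213 CPM in female WT (log2 fold change 0.10 ± 0.030, edgeR adjusted p = 0.00977). The female call was lost without female KO replicate 2 (adjusted p = 0.0507) and with library size as the only scaling (adjusted p = 0.112). Unc5c was higher in female KO (log2 fold change 0.41 ± 0.081). Ntn1, the founding axon attractant, was called in neither sex, and the same was true of the rarer Ntn3 and Unc5a.

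The strongest decrease in male KO was that of Slit3. This secreted Robo ligand (chromosome 11, 35121224 to 35708507) had 2.27, 2.18 and 2.45 CPM in male KO against 4.92, 5.44, 4.93 and 5.29 CPM in male WT, which is 2.21-fold lower (log2 fold change -1.15 ± 0.14, edgeR adjusted p = 7.61e-08). Female pools had 2.11, 1.85, 2.17 and 2.03 CPM in KO and 2.18, 1.703, 2.002 and 1.82 CPM in WT (log2 fold change 0.08 ± 0.15, edgeR adjusted p = 0.707). Male WT alone was high. The lowest male KO library lay just above the highest female one, and female KO and WT overlapped. Robo2, the Slit receptor of kidney development, had 12.3, 13.3 and 12.1 CPM in male KO against 16.7, 17.6, 18.7 and 19.1 CPM in male WT (log2 fold change -0.52 ± 0.088, edgeR adjusted p = 3.32e-05), with overlapping female groups at 7.76 to 9.24 CPM in KO and 6.81 to 9.73 CPM in WT. Slit2 was lower in both sexes, at 14.2, 12.4 and 13.97 CPM in male KO against 17.7, 17.8, 18.6 and 18.2 CPM in male WT (log2 fold change -0.41 ± 0.075, edgeR adjusted p = 8.03e-05) and 13.6, 14.03, 13.4 and 14.2 CPM in female KO against 15.8, 18.7, 15.1 and 17.5 CPM in female WT (log2 fold change -0.28 ± 0.070, edgeR adjusted p = 0.00166). Robo1 was lower in both as well, by 0.26 ± 0.044 and 0.15 ± 0.041 on the log2 scale. Slit1 and Robo3, a receptor known from midline crossing, were called in neither sex.

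**Figure D3:**
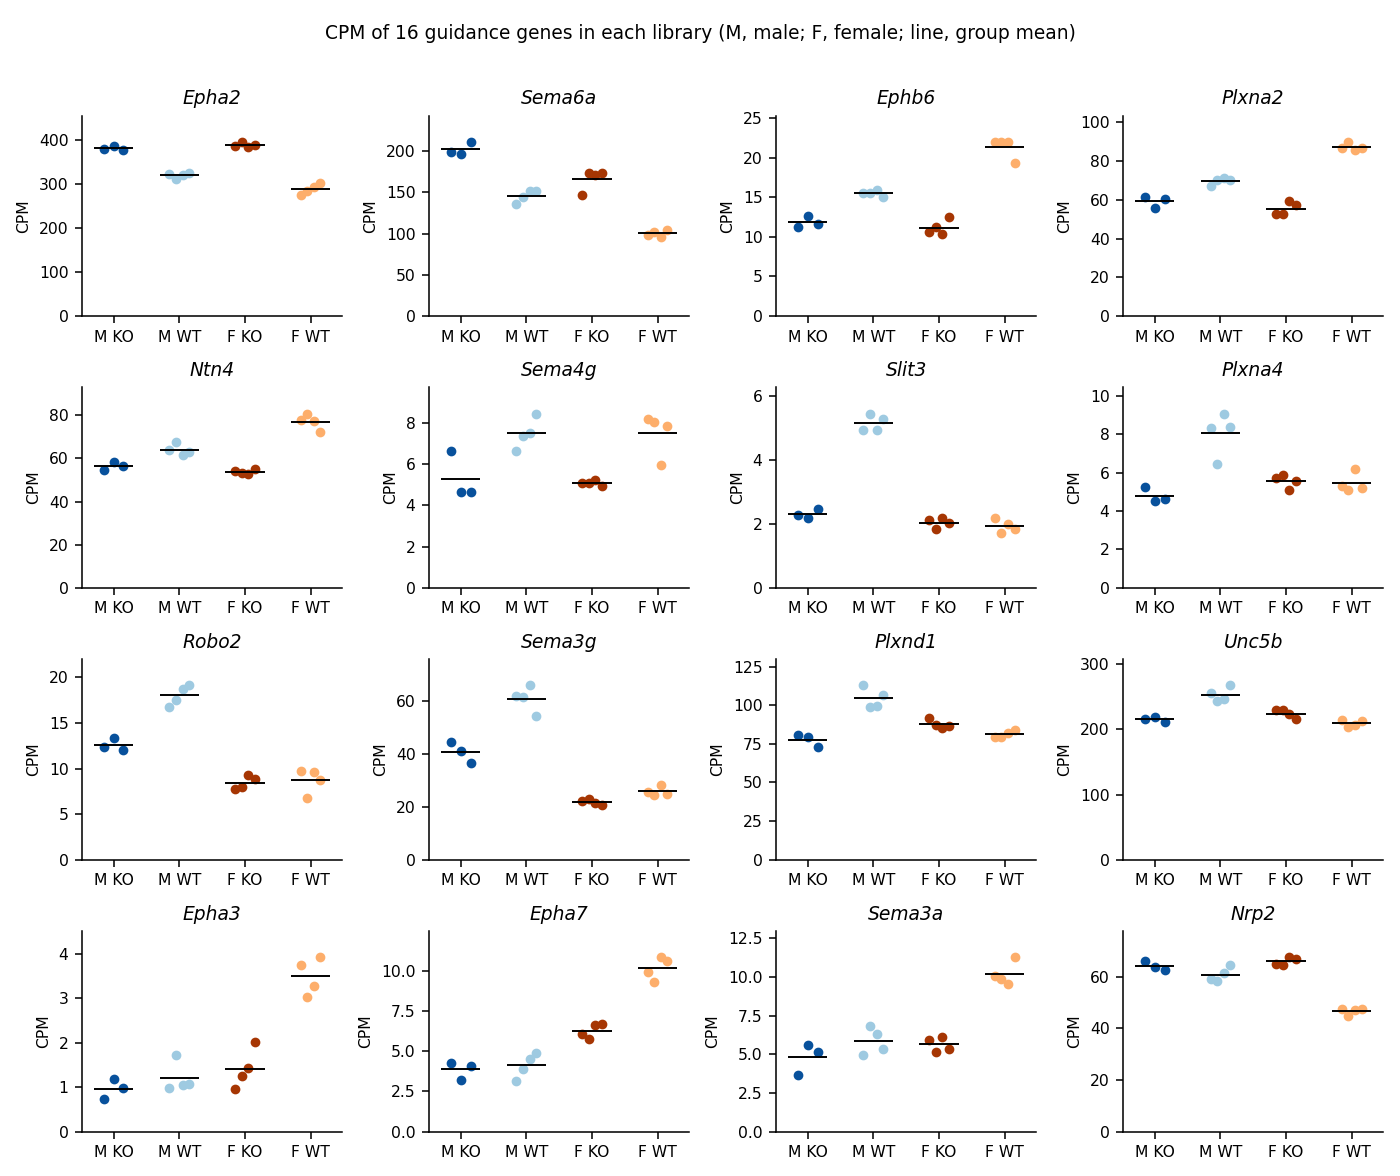
CPM (linear axis from 0) of 16 guidance genes in each library, with a line at the mean of each pool. Male WT stands above the other pools for Slit3, Plxna4, Robo2, Sema3g, Plxnd1 and Unc5b, and female WT above them for Ephb6, Plxna2, Ntn4, Epha3, Epha7 and Sema3a.

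The second comparison asked whether the difference between KO and WT itself differed between male and female pools. Each group was a single pool, so a sex difference in the KO effect and a deviation of a single pool cannot be told apart. The interaction, female effect minus male effect, was called for 28 guidance genes, 47.5% of those tested against 15.6% of all genes. It was positive for 14 and negative for 14, against 9.76% and 5.89% of all genes, and 7 differed by at least 1.5-fold (3.29% of all genes). The largest were those of Slit3 (1.23 ± 0.21, edgeR adjusted p = 4.15e-05), Epha3 (-1.01 ± 0.34, 0.0394), Plxna4 (0.79 ± 0.16, 4.94e-04), Sema3e (0.68 ± 0.086, 3.15e-06) and Sema6d (0.66 ± 0.17, 0.00551). That of Epha3 was lost in 10 of the 22 alternative analyses that gave it an interaction value, all of them with a library left out (adjusted p = 0.0527 to 0.161). These were male KO replicates 2 and 3, male WT replicates 1, 3 and 4, female KO replicates 1, 2 and 3 and female WT replicates 1 and 4. Ephb6, Plxna2 and Ntn4 fell in both sexes but further in female cells (interaction -0.53 ± 0.11, -0.41 ± 0.059 and -0.34 ± 0.058).

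Among the guidance genes, a WT pool often stood apart from the other 3. Every male WT library lay above every other library for 7 guidance genes, Plxna4, Plxnd1, Robo2, Sema3g, Sema6d, Slit3 and Unc5b (11.9% of those tested, against 2.71% of all genes), and below for none (0.877% of all genes). Every female WT library lay above all others for 12, which were Efna5, Efnb2, Epha1, Epha3, Epha7, Ephb3, Ephb6, Ntn4, Plxna2, Plxnb1, Sema3a and Sema3f (20.3%, against 6.87% of all genes). Female WT lay below all others for Epha2, Nrp2, Plxnb2, Sema3e and Sema6a (8.47%, against 8.96% of all genes). Male KO stood apart for 4 genes, above for Epha4, Plxnb2 and Sema6a (3.37% of all genes) and below for Nrp1 (2.73%). Female KO stood above for Nrp1, Sema4b, Sema4f and Sema7a (2.17% of all genes) and below for Sema3b, Sema3g and Sema5a (1.83%).

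Markers of other cell types also differed between the pools. The endothelial list (10 genes) summed to 36.9 to 42.03 CPM in male KO against 80.3 to 86.1 CPM in male WT, and to 37.9 to 48.8 CPM in female KO against 33.3 to 40.1 CPM in female WT. Of its members 9 of 10 were lower in male KO (median log2 fold change -1.12) and 2 higher in female KO (0.17), and none was at 0 in every library. Fibroblast markers (8 genes, 7 tested) summed to 1786 to 1974 CPM in male KO against 3425 to 3660.0 CPM in male WT, and to 2546 to 2774 CPM in female KO against 3562 to 3838 CPM in female WT, with 5 members lower in male KO, and 4 lower and 2 higher (Pdgfra and Fbln1) in female KO. Smooth muscle and pericyte markers were lower in male KO for 7 of 7 members (in female KO 1 was higher and 3 lower), at 2648 to 2719.7 CPM against 3156 to 3473 CPM in male WT, and summed to 3338 to 3848 CPM in female KO against 3375 to 3417 CPM in female WT.

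Distal nephron markers (8 genes, 6 tested) were highest in the female WT pool. They summed to 6.71 to 8.51 CPM in male KO against 10.4 to 12.9 CPM in male WT, and to 4.09 to 7.39 CPM in female KO against 18.6 to 20.5 CPM in female WT, with 1 and 4 members lower in male and female KO. Podocyte markers summed to 383 to 418 CPM in male KO, 449 to 475 in male WT, 309 to 347 in female KO and 297 to 311 in female WT. Of their 6 genes, 2 were lower in male KO, and 3 were higher and 1 lower in female KO. Markers of dividing cells were higher in KO for 8 of 8 genes in each sex, at 457 to 491 CPM in male KO against 346 to 360.4 CPM in male WT and 398 to 434 CPM in female KO against 230.2 to 244 CPM in female WT. Leukocyte markers summed to 9.09 to 28.7 CPM over all libraries, with 4 and 3 of 6 tested members higher in male and female KO, and Schwann cell and neuron markers to 7.71 to 12.03 CPM. Kidney epithelium markers summed to 5846 to 5954 CPM in male KO, 4668 to 4953 in male WT, 5144 to 5301 in female KO and 4338 to 4469 in female WT. Of these 8 genes, 4 were higher in male KO, and 2 were higher and 3 lower in female KO. Proximal tubule markers summed to 69.2 to 70.4, 84.7 to 89.9, 65.4 to 67.6 and 97.3 to 111 CPM in the same order. Ggt1 and Lrp2 held most of this sum. Of 9 tested members, 2 were lower in male KO, and 1 was higher and 2 lower in female KO (median log2 fold changes -0.23 and 0.02). The part of any of these cell types or of cell division in the changes of guidance genes was not tested.

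**Figure D4:**
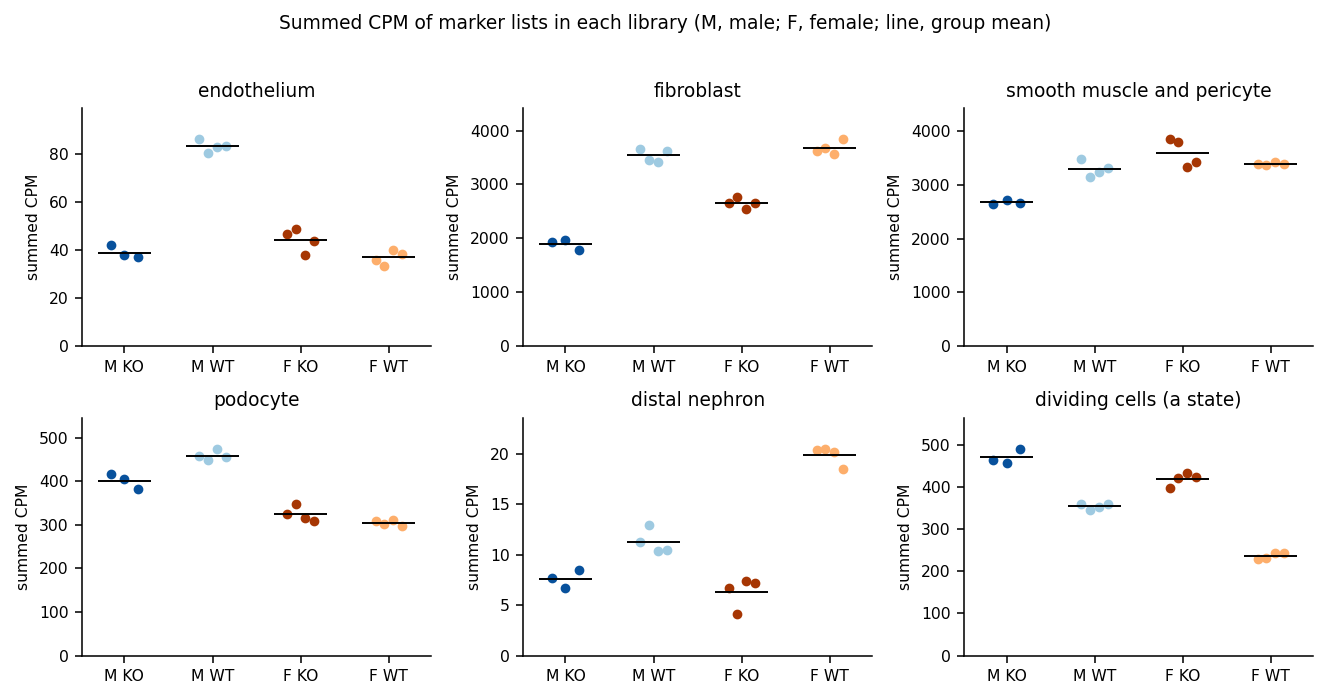
Summed CPM (linear axis from 0) of marker lists for 5 other cell types and for dividing cells in each library, with a line at the mean of each pool. Endothelial markers are about as low in male KO as in the female pools and higher in male WT, and distal nephron markers are highest in female WT.

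The WT pools were also compared by sex. Female WT differed from male WT for 31 guidance genes, 52.5% of those tested against 28.6% of all genes, 18 of them higher in female WT (12.6% of all genes were) and 13 lower (16.0%). Of these, 9 differed by at least 1.5-fold (5.06% of all genes), and the libraries of 31 guidance genes did not overlap (27.5% of all genes). Epha3 (log2 fold change 1.59 ± 0.19), Epha7 (1.33 ± 0.11) and the neuropilin ligand Sema3d (1.02 ± 0.13) had the largest increases. Slit3 (-1.41 ± 0.13), Ephb1 (-1.40 ± 0.25), Sema3g (-1.24 ± 0.061) and Robo2 (-1.04 ± 0.085) had the largest decreases. Sema3d had 5.93, 4.63, 5.37 and 5.63 CPM in female WT against 2.52, 2.33, 3.15 and 2.56 CPM in male WT, and the KO pools repeated this order at 4.17 to 5.49 CPM in female KO and 2.12 to 2.91 CPM in male KO. Ephb1 had 0.507, 1.17, 0.537 and 0.397 CPM in female WT against 1.55, 1.56, 1.78 and 1.87 CPM in male WT, with 0.599 to 0.9002 CPM in female KO and 1.35 to 1.83 CPM in male KO. With 1 pool per sex and genotype, a difference between sexes and a difference between pools cannot be told apart. This comparison shares its WT libraries with the KO comparisons.

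Other genes of the same pathways were taken from lists, whose counts stand beside 20.2% of all genes called in male and 39.3% in female cells. Semaphorin and plexin signalling was represented by 16 genes, with 2 higher and 2 lower in male KO, and 7 higher and 1 lower in female KO (median log2 fold changes 0.02 and 0.12). The cytoskeletal mediator Dpysl5 was higher in both sexes (0.51 ± 0.075 and 0.62 ± 0.078) and Dpysl4 lower in both (-0.92 ± 0.22 and -1.53 ± 0.21). Dpysl2 was also higher in both (0.19 ± 0.054 and 0.64 ± 0.052), and the GTPase Rnd1 in female KO (0.73 ± 0.068). The actin oxidase Mical1 was lower in male KO (-0.21 ± 0.053) and higher in female KO (0.22 ± 0.050). Among 8 netrin signalling genes, of which 6 were tested, 1 was higher and 1 lower in male KO, and 3 higher and 2 lower in female KO. Ablim1 was higher (0.43 ± 0.041 and 0.51 ± 0.039) and Maged1 lower (-0.25 ± 0.031 and -0.13 ± 0.028) in both sexes. In female KO Trio (0.19 ± 0.040) was also higher and Dapk1 (-0.20 ± 0.038) lower. Ephrin and Eph signalling had 11 genes, with 1 higher and 2 lower in male KO, and 2 higher and 1 lower in female KO. Chn2 (0.28 ± 0.071) had a higher level in male KO, and Pdzrn3 (-0.70 ± 0.077) and the vascular exchange factor Arhgef15 (-1.60 ± 0.39) a lower one. Arhgef15 was rare, at 0.249 ± 0.0958 CPM in male KO against 0.740 ± 0.148 CPM in male WT. Pdzrn3 was lower in female KO (-0.40 ± 0.074), where Vav3 (0.16 ± 0.062) and Inppl1 (0.16 ± 0.028) were higher.

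Among 7 Slit and Robo signalling genes, the GTPase-activating proteins Srgap1 (0.39 ± 0.041) and Srgap3 (0.12 ± 0.039) were higher in female KO and 2 genes were lower in each sex. Arhgap39 was lower in both (-0.20 ± 0.056 and -0.31 ± 0.052), Nck2 in male KO (-0.11 ± 0.039) and Nck1 in female KO (-0.18 ± 0.051). Of 9 other receptors (7 tested), 1 was higher and 2 lower in each sex. The endothelial Robo4 fell to 1.11 ± 0.241 CPM in male KO, against 2.51 ± 0.355 CPM in male WT (log2 fold change -1.17 ± 0.21, n = 3 and 4 libraries). Nrcam was lower in male KO (-0.40 ± 0.10) and higher in female KO (0.98 ± 0.12), whereas L1cam moved the opposite way (0.13 ± 0.039 in male and -0.16 ± 0.037 in female KO). The neogenin gene Neo1 was lower in female KO by a small amount (-0.07 ± 0.028). Of 9 other ligands (8 tested), 2 were lower in male KO, and 1 was higher and 2 lower in female KO. Flrt2 was lower in male KO (-0.33 ± 0.060) and higher in female KO (0.26 ± 0.055). Ntng2 was lower in male KO (-0.63 ± 0.12), and Flrt3 (-1.09 ± 0.081) and Rgma (-0.16 ± 0.059) in female KO.

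With counts summed per pool, so that 2 KO pools stood against 2 WT pools with sex as a covariate, edgeR called 0 of the 59 guidance genes and 1 of all 13912 (0.00719%). Unadjusted p was below 0.05 for 17 guidance genes (28.8%, against 17.7% of all genes), and the smallest adjusted p was 0.137. Limma-voom called 0 on the same sums and 0 of all genes (unadjusted p below 0.05 for 19, or 32.2%, against 18.3%). DESeq2 called 5 (8.47%, against 2.49% of all genes, and 14 unadjusted, or 23.7% against 8.64%), with Epha2 and Sema6a as higher and Ephb6, Plxna2 and Sema3g as lower. This comparison has 1 residual degree of freedom.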

How the data were processed

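Strand-specific mRNA libraries were prepared from RNA purified by Trizol and RNeasy columns, per the labels' protocols. Counts as deposited by the authors are whole numbers for each symbol, for which STAR 2.6.1, featureCounts and build mm10 are named in the submitters' processing notes, with edgeR 3.26.8 and limma 3.40.6. Which gene models and strand option featureCounts used is not given in the sources used here, so reads of antisense partners could be shared. The deposited CPM values equal the counts per library total to within 1e-06 and served as a check.

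Genes with enough counts were kept (filterByExpr, minimum count 10, minimum total 15), TMM factors were applied, and all 4 groups entered a single quasi-likelihood fit in edgeR 4.0.16 (R 4.3.3), with Benjamini-Hochberg adjustment over all 13912 genes tested. Standard errors were obtained by dividing each estimate by the root of F. Exon lengths and positions are from GENCODE M21 (GRCm38), promoter sequences from RefSeq. Alternatives used limma 3.58.1 and DESeq2 1.42.0, other scalings and filters, a replicate block and each library left out.

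The guidance genes, lists and tests were chosen with earlier results of these data known. Genes with values per library were the 8 with the largest change in each sex among called genes of at least 1 CPM without overlap, those called in both sexes with a log2 change of at least 0.5 and the 5 largest interactions. The highest per length in each family was named too. These have values per library, except for Plxnb2, Robo1 and Sema4d, and for Nrp1 in male cells. Values per library of other genes, namely Efnb2, Epha4, Nrp2, Sema3d and Ephb1, were added after they were seen, and partner genes beyond the 2 largest changes per list, direction and sex are named as well. At these depths 3 counts correspond to 0.0971 to 0.170 CPM, which covers counting error only.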

Additional observations from a re-analysis of the deposited data

Results flagged for a closer look

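By the interaction test (edgeR, adjusted p below 0.05), the KO effect differed between male and female pools for 28 guidance genes. The difference is given here as the female log2 fold change minus the male one. Each group was a single pool, so it cannot be told apart from a deviation of a single pool. The difference was positive for Slit3 (1.23), Plxna4 (0.79), Sema3e (0.68), Sema6d (0.66), Unc5c (0.58), Plxnd1 (0.54), Sema4f (0.47), Robo2 (0.47), Nrp2 (0.41), Sema3g (0.33), Unc5b (0.33), Sema6a (0.26), Nrp1 (0.18) and Epha2 (0.17). It was negative for Epha3 (-1.01), Epha7 (-0.63), Sema3a (-0.59), Ephb6 (-0.53), Plxna2 (-0.41), Ephb3 (-0.35), Ntn4 (-0.34), Epha1 (-0.33), Sema3c (-0.31), Epha4 (-0.24), Sema4d (-0.23), Efna5 (-0.22), Plxnb1 (-0.20) and Ephb4 (-0.16). The calls of Epha3, Sema3c and Sema6a were lost in 10 of 22, 7 of 23 and 7 of 23 alternative analyses. For Sema6a these left out male KO replicate 1 or 2, male WT replicate 4 or female KO replicate 2, 3 or 4, or used no filter on low counts (adjusted p = 0.0502 to 0.0742). For Sema3c they left out male KO replicate 1 or 3, male WT replicate 4, female KO replicate 2 or female WT replicate 3 or 4, or used no such filter (adjusted p = 0.0511 to 0.0895). The calls of Efna5, Epha7, Sema3a and Sema3g were lost in 1 or 2, with a male KO library left out in each (adjusted p = 0.0525 to 0.0976).

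Single libraries lay apart from the other 3 of their group in 4 of 72 groups of values examined, where chance gives about 1 in 20. Epha3 was at 1.72 CPM in male WT replicate 2, above the rest of that group. Low values were those of Ephb6 in female WT replicate 4 (19.3 CPM), Sema4g in female WT replicate 3 (5.96 CPM) and Sema6a in female KO replicate 1 (146.6 CPM). No library recurred among these, and KO and WT libraries of Ephb6, Sema4g and Sema6a stayed separate.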

How the results depend on the processing

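Counts of called guidance genes stayed within 1.5 times of those reported in every alternative, except for the 4 summed pools. Leaving out each library in turn gave 17 to 22 in male cells, 34 to 37 in female cells, 24 to 30 for the interaction, 28 to 32 for female against male WT and 0 to 1 for the pools (1, higher in KO, without male KO replicate 2). Other scalings, filters and tests gave 19 to 21, 33 to 36, 27 to 31 and 27 to 34. For the pools, library size as the only scaling gave 2 called and 2 higher, no filter on low counts 2 called and 2 higher, and DESeq2 5 called, 2 higher and 3 lower; the cause was not tested. No call in the single comparisons changed direction. Of the calls, 17 of 21 in male, 32 of 36 in female, 21 of 28 for the interaction and 27 of 31 for WT by sex were kept in every alternative they were part of.

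Scaling by library size alone put 39.9% of all female calls higher in KO, against 52.7% with TMM, and guidance genes split into 10 higher and 25 lower. It put 46.3% of interaction calls (62.4% with TMM) and 55.2% of calls between WT pools (44.1%) on the higher side. The replicate block gave 21 calls in male and 36 in female cells, as without it, 31 for the interaction and 34 between WT pools. Same-numbered libraries correlated in their deviations at -0.0285 to 0.072. Male replicates 1 and 3 and female replicates 3 and 4 correlated best with their own number. Male replicate 2 and female replicates 1 and 2 did not. The correlations were weak, and the numbers were not taken as pairs. Depth limits the rare genes: below about 1 CPM, standard errors reached 0.52 for the interaction.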
